A study of Homo sapiens with 8 samples.

Results

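Immediate-early genes are transcribed within minutes of a signal reaching a cell, without the need for newly made protein, and most of their messages are short-lived. Growth factors, serum and mechanical force reach many of them through the ERK pathway and through serum response factor (SRF), which binds CArG boxes in their promoters with ternary complex factors or with the actin-sensing coactivators of the MRTF family. AP-1 subunits such as FOS and JUN are the best known members. Here the members outside AP-1 are described in LX-2, an immortalized human hepatic stellate cell line. Stellate cells store vitamin A in the healthy liver and turn into matrix-producing myofibroblasts during fibrosis.

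The rows of 10 listed genes were taken from the count and FPKM tables of 25369 genes, and all 10 were found. They comprised the zinc finger factors EGR1, EGR2 and EGR3 (early growth response), KLF2, KLF4 and KLF6 (Krüppel-like factors), the small nuclear protein gene IER2, the survival gene IER3, the MAP kinase phosphatase gene DUSP1 and the bHLH factor gene MYC. The rule used names and no measured value, but the genes were listed with earlier results of these data known. All 10 passed the filter on low counts, which kept 14570 genes.

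Wild-type LX-2 cells were cultured on fibronectin-coated polyacrylamide hydrogels that were soft (2 kPa, near the stiffness of normal liver) or stiff (40 kPa, near that of cirrhotic liver), for 2 or 4 days, with serum in the medium of every group. Each of the 4 conditions had 2 libraries, 8 in all. The cells came from plastic before they were placed on the gels, and the groups contain neither an unplated nor a serum-free control. LX-2 is a single line. The study names 2 independent experiments per category, but the labels do not say how the replicate cultures were separated. The p-values therefore measure the spread between these libraries. The libraries were made from bulk RNA, in which fewer cells expressing a gene and less of its RNA per cell cannot be told apart.

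Totals lay between 19955975 and 27263935 counts per library. Of the stellate cell markers, COL1A1, VIM, TAGLN, SPARC and TIMP1 were abundant, whereas DES had 0 to 2 counts and COL1A2 37 to 90 counts per library. Hepatocyte markers summed to 0.0391 to 0.266 FPKM and endothelial markers to 0.0190 to 0.160 FPKM. Cholangiocyte markers summed to 5.80 to 11.4 FPKM, and the 4 leukocyte and macrophage markers to 48.2 to 66.6 FPKM, of which CD68, a lysosomal protein gene, held 45.2 to 63.4 FPKM and MARCO 0 to 1 counts per library. The stiff libraries of day 4 stood apart from each other. The SD over genes of the difference in log2 CPM between the replicates was 0.739 there, against 0.269 to 0.407 in the other conditions.

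EGR1 lies on chromosome 5 of GRCh37 (chr5:137801168-137804992, forward strand), and DUSP1 on the same chromosome (chr5:172195099-172198198, reverse strand). Both had their highest level on the stiff matrix at day 4, with both libraries of that condition above all others. KLF6 also had its highest mean there (191 CPM), but its libraries overlapped those of the soft matrix at day 4. Because EGR1 and DUSP1 shared this pattern, the 150 bases before their transcript starts are shown. Beside them are those of IER2, of KLF2 as a gene with another pattern, and of EGR2, a gene of the same family as EGR1. The sequences are from the RefSeq promoter table of GRCh38.p14, which held 9 promoters for 7 of the 10 genes, and each was matched to a single place in GRCh37. Capitals mark motif matches. IER3, EGR3 and MYC had no entry.
EGR1, chr5:137801018-137801167, forward strand: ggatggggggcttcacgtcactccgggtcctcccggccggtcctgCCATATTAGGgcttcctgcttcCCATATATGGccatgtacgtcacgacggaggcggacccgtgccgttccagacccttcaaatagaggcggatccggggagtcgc
DUSP1, chr5:172198199-172198348, reverse strand: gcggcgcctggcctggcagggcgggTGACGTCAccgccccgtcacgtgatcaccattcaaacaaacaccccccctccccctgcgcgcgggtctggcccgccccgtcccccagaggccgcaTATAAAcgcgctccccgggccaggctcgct
EGR2 promoter 3, chr10:64576127-64576276, reverse strand: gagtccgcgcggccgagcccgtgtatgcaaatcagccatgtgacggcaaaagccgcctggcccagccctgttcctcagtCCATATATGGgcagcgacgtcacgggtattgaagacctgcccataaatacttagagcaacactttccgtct
IER2, chr19:13261075-13261224, forward strand: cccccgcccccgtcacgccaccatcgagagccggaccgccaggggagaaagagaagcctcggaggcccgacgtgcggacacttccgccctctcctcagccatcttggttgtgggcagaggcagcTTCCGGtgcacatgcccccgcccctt
KLF2, chr19:16435487-16435636, forward strand: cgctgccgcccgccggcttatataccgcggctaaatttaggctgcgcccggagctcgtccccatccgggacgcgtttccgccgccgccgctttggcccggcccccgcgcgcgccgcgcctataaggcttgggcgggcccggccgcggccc

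The search covered 250 bases before to 50 bases after each start, on both strands. The EGR1 promoter held 2 CArG boxes, at -105 to -96 and at -83 to -74 from the start, and EGR2 promoter 3 held 1, at -71 to -62. A CArG box was present in 1.29% of 35114 promoters of the same length. DUSP1 had no CArG box in this window, but held a cAMP response element (TGACGTCA, in 1.85% of promoters) at -125 to -118 and a TATA box (TATAAA, in 11.5%) at -30 to -25. IER2 held the core bound by ternary complex factors (CCGGAA, in 17.2%) on the opposite strand at -26 to -21. The EGR site GCGTGGGCG (0.795% of promoters) and the AP-1 site TGANTCA (7.71%) had no match in any of the 9 windows. KLF2, KLF4, KLF6 and EGR2 promoters 1 and 2 held none of the 6 motifs. These matches describe the letters in the windows and are no measure of binding.

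**Figure D1:**
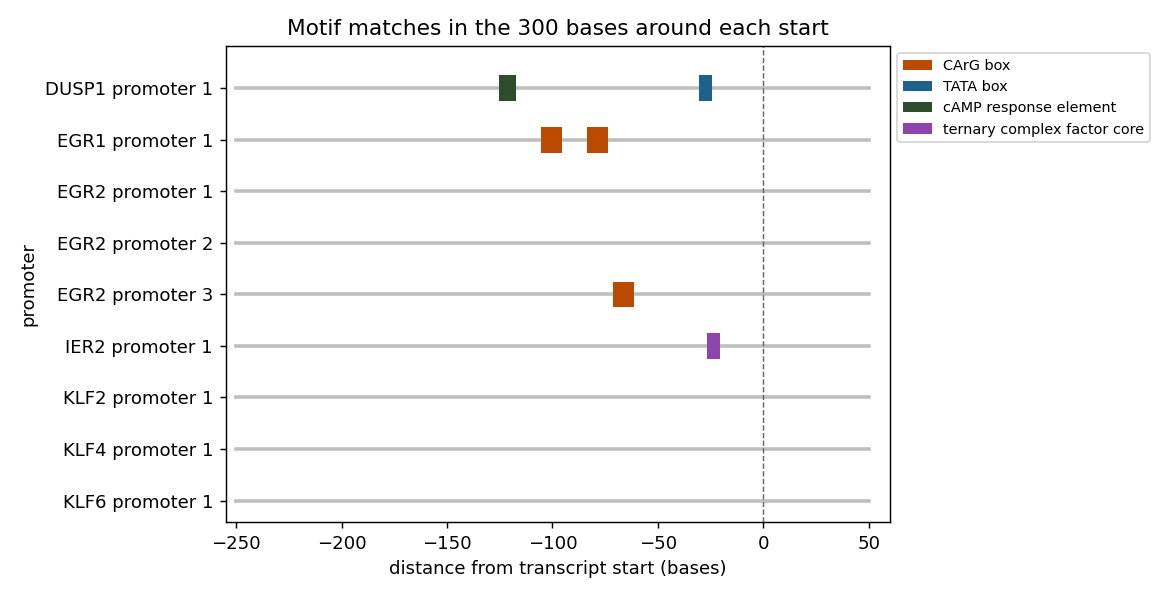
Positions of motif matches in the 9 promoters of 7 genes, with the distance from the transcript start in bases on the x axis, grey lines for the window searched, coloured blocks for matches and a dashed line at the start. The matches stand within 125 bases before the start, with 2 CArG boxes in EGR1, 1 in EGR2 promoter 3 and none in DUSP1.

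Compared per length, in FPKM (fragments per kilobase of gene model, scaled to library size), the members spanned about 3 orders of magnitude. KLF2, a factor known for its induction by flow in endothelium, had the highest level at day 2, with 103 ± 11.3 FPKM on the soft and 108 ± 3.14 FPKM on the stiff matrix (SD, n = 2 each). At day 4 the highest mean was that of DUSP1, with 51.6 ± 1.62 FPKM on the soft and 96.9 ± 3.08 FPKM on the stiff matrix (SD, n = 2 each). On the soft matrix its libraries overlapped those of KLF2 (47.9 ± 12.1 FPKM, n = 2), so that their order is not resolved there, and on the stiff matrix they did not. IER2, KLF6 and MYC lay in the middle at 24.3 to 65.0 FPKM, EGR1 at 10.8 to 27.6 FPKM, IER3 at 10.1 to 14.5 FPKM and KLF4 at 3.02 to 4.19 FPKM. EGR2 and EGR3 had means of 0.0310 to 0.222 FPKM and were the lowest of the 10 in every condition. The FPKM of IER3 rest on an implied length of 7440 bases, whereas the annotated transcript closest to it has 1350 bases, so its place in this order depends on that gene model. The place of KLF2 does too, since its implied length is 1649 bases and its closest annotated transcript has 2820 bases.

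As a group, the 10 genes took up 0.0597 to 0.0870% of the counts of a library. Their summed level was 295 to 318 FPKM on the soft and 326 to 355 FPKM on the stiff matrix at day 2. At day 4 it was 210 to 236 FPKM on the soft and 302 to 342 FPKM on the stiff matrix. The stiff libraries thus lay above the soft ones on both days, and the soft libraries of day 4 were below all others. For comparison, the libraries of the matrices did not overlap for 48.2% of single genes at day 2 and for 25.7% at day 4. These sums are carried mainly by KLF2, DUSP1 and IER2, and the FPKM of KLF2 depend on its gene model. The members did not move as one, since 5 of the 10 had a negative log2 fold change for stiffness at day 2 and 3 at day 4.

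**Figure D2:**
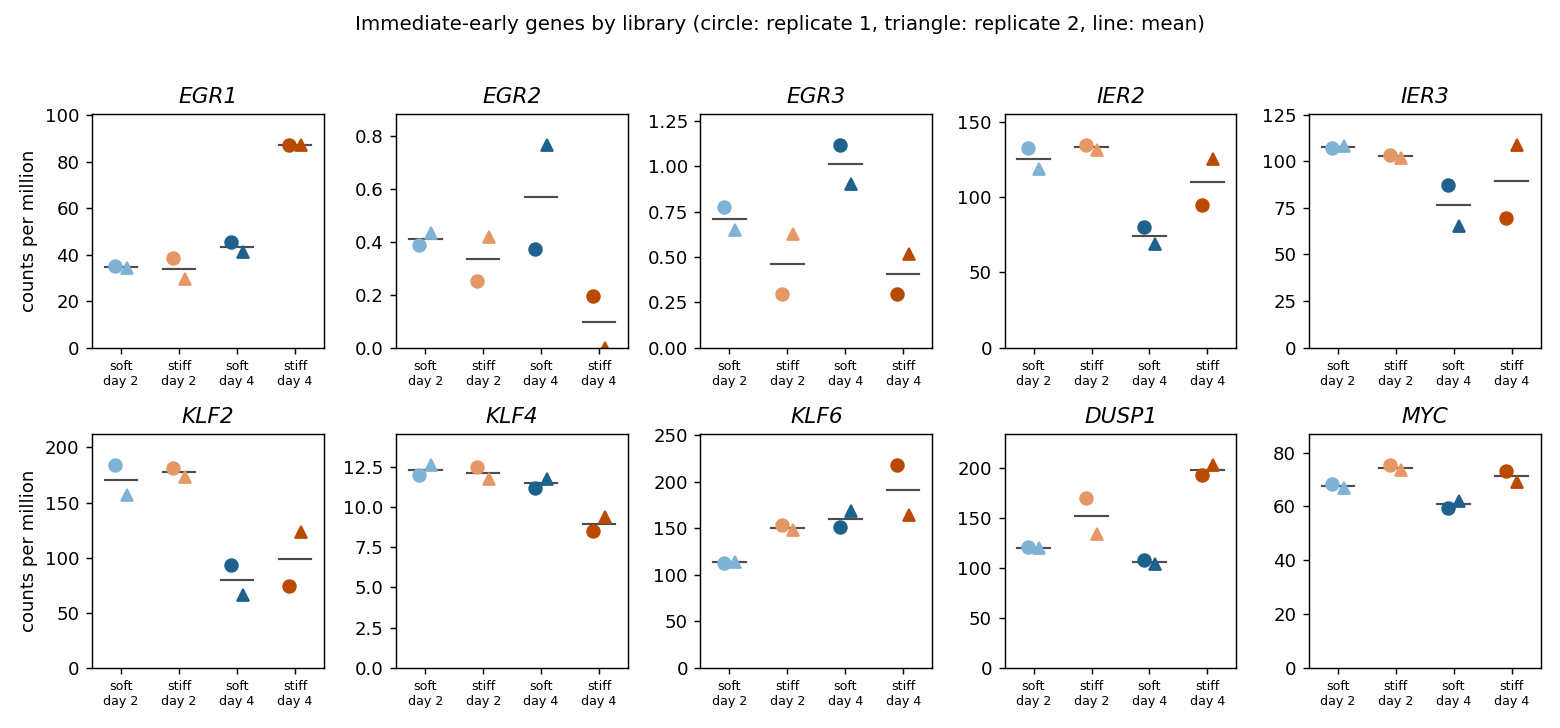
Expression of each member by library in CPM (y axes start at 0) for the 4 conditions, with a circle for replicate 1, a triangle for replicate 2 and a line at the mean. EGR1 and DUSP1 have both stiff libraries of day 4 above the other libraries, and KLF2 has all day 4 libraries below those of day 2.

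The first question was whether these genes differed between the stiff and the soft matrix after 2 days. None of the 10 passed an adjusted p of 0.05 in edgeR's quasi-likelihood test (p-values adjusted over all genes tested by the Benjamini-Hochberg method), and neither did any gene at all (0% of 14570). DESeq2 and limma also called 0 members. At an unadjusted p under 0.05, 2 members differed, DUSP1 and KLF6, against a background of 2.82% of genes. The libraries of the matrices did not overlap for 5 members, with DUSP1, KLF6 and MYC higher and EGR3 and IER3 lower on the stiff matrix, but this was so for 48.2% of all genes. The median log2 fold change was 0.02 over the members and 0.01 over all genes.

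KLF6, a factor first described as an early gene of stellate cell activation, lies on chromosome 10 (chr10:3818188-3827473, reverse strand). In CPM, which are counts scaled to library size and not to length, it had 112.7 and 114 CPM in the soft libraries and 153 and 148 CPM in the stiff libraries of day 2. The stiff libraries were the higher pair, with little spread in either group. The estimate was 0.41 on the log2 scale (SE, the standard error, 0.159, unadjusted p = 0.0340, adjusted p = 0.9999 by edgeR). DUSP1, which encodes a phosphatase that switches off MAP kinases in the nucleus, had 121 and 119 CPM on the soft and 170 and 134 CPM on the stiff matrix at this day. Both stiff libraries were higher, with a wide gap between them, and the estimate was 0.34 (SE 0.144, unadjusted p = 0.0448, adjusted p = 0.9999 by edgeR). When the 4 libraries of day 2 were fitted on their own, both KLF6 and DUSP1 passed the adjusted threshold, in a fit that called 4.67% of all genes (667 of 14290). The other members had log2 fold changes between -0.62 (EGR3, standard error 0.472) and 0.14 (MYC, standard error 0.120).

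After 4 days, EGR1 and DUSP1 stood about 2-fold and 1.87-fold higher on the stiff matrix, but no member passed the adjusted threshold. In the same test 0.247% of all genes were called. At an unadjusted p under 0.05, 6 of the 10 members differed, against 6.93% of all genes. EGR1, DUSP1 and IER2 were higher, and EGR2, EGR3 and KLF4 were lower. For these 6 and for MYC the libraries of the matrices did not overlap, which held for 25.7% of all genes. The median log2 fold change of the members was 0.24, and that of all genes 0.02.

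EGR1, a zinc finger activator with targets in growth and matrix synthesis, had 45.5 and 41.3 CPM in the soft libraries and 87.3 and 87.4 CPM in the stiff libraries of day 4, from 975, 916, 1777 and 1517 counts. The replicates lay close together and the groups far apart. The log2 fold change was 1.01 with an SE of 0.157, and the adjusted p from edgeR was 0.0664. DUSP1 had 107 and 104 CPM on the soft and 193 and 203 CPM on the stiff matrix. Its groups were as clearly apart, with a log2 fold change of 0.91, an SE of 0.146 and an adjusted p of 0.0775 by edgeR. DESeq2 called both genes, limma neither. Over 20 other settings the log2 fold change stayed between 0.89 and 1.09 for EGR1 and between 0.78 and 0.95 for DUSP1, while the adjusted p ranged from 1.58e-05 to 0.651 for EGR1 and from 2.36e-05 to 0.748 for DUSP1. Each of the 2 genes passed the threshold in 5 of these settings, among them the fits without stiff replicate 1 or 2 of day 4.

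IER2, on chromosome 19 (chr19:13261225-13265725, forward strand), encodes a short nuclear regulator of transcription. It had 80.0 and 68.9 CPM on the soft and 94.8 and 125 CPM on the stiff matrix at day 4. The stiff libraries were higher and spread widely, and edgeR gave 0.57 (SE 0.168) on the log2 scale, with an adjusted p of 0.423. IER3 (chr6:30710976-30712325, reverse strand), whose product protects cells from apoptosis, had 87.3 and 65.4 CPM on the soft and 69.8 and 109 CPM on the stiff matrix, with overlapping groups. KLF2 (chr19:16435637-16439496, forward strand) showed the same kind of gap inside the stiff group, with 74.1 and 123 CPM against 93.6 and 66.1 CPM on the soft matrix. In these 3 genes stiff replicate 2 was above stiff replicate 1, whereas KLF6 had 218 CPM in stiff replicate 1 and 164 CPM in stiff replicate 2, against 152 and 169 CPM on the soft matrix. Without stiff replicate 1 the number of members called rose from 0 to 6, which were DUSP1, EGR1, EGR2, IER2, IER3 and KLF2, where EGR2 was left with a stiff library of 0 counts. That fit called 31.1% of all genes (4676 of 15021). Without stiff replicate 2 it was 3, namely DUSP1, EGR1 and KLF6, with 3.63% of all genes called (545 of 15014). Each of these fits leaves a lone stiff library of day 4, which is assumed to vary like the other groups.

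EGR2 and EGR3, relatives of EGR1 that bind the same DNA site, lay on the other side. EGR3 (chr8:22545172-22550993, reverse strand) had 24 and 20 counts in the soft libraries of day 4 and 6 and 9 counts in the stiff libraries, and the groups did not overlap. The estimate was -1.32 on the log2 scale (SE 0.498, adjusted p = 0.615 by edgeR). EGR2 (chr10:64571756-64578927, reverse strand) had 8 and 17 counts on the soft and 4 and 0 counts on the stiff matrix. The estimate of -2.38 (SE 0.886, adjusted p = 0.599 by edgeR) rests on 4 counts in the stiff group. At this depth 3 counts, the limit that a count of 0 allows, correspond to 0.173 CPM in the library without an EGR2 count. Both genes were near the detection limit in all 8 libraries.

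KLF4, a factor known for quiescence and for reprogramming (chr9:110247133-110252763, reverse strand), had 11.2 and 11.8 CPM on the soft and 8.50 and 9.39 CPM on the stiff matrix at day 4. The stiff libraries were lower, with an estimate of -0.36 on the log2 scale (SE 0.1495, adjusted p = 0.694 by edgeR). MYC, a driver of growth and ribosome production (chr8:128747680-128755197, forward strand), had 59.4 and 62.2 CPM on the soft and 73.2 and 69.2 CPM on the stiff matrix. The groups did not overlap, and the estimate was 0.23 on the log2 scale (SE 0.120, adjusted p = 0.819 by edgeR).

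**Figure D3:**
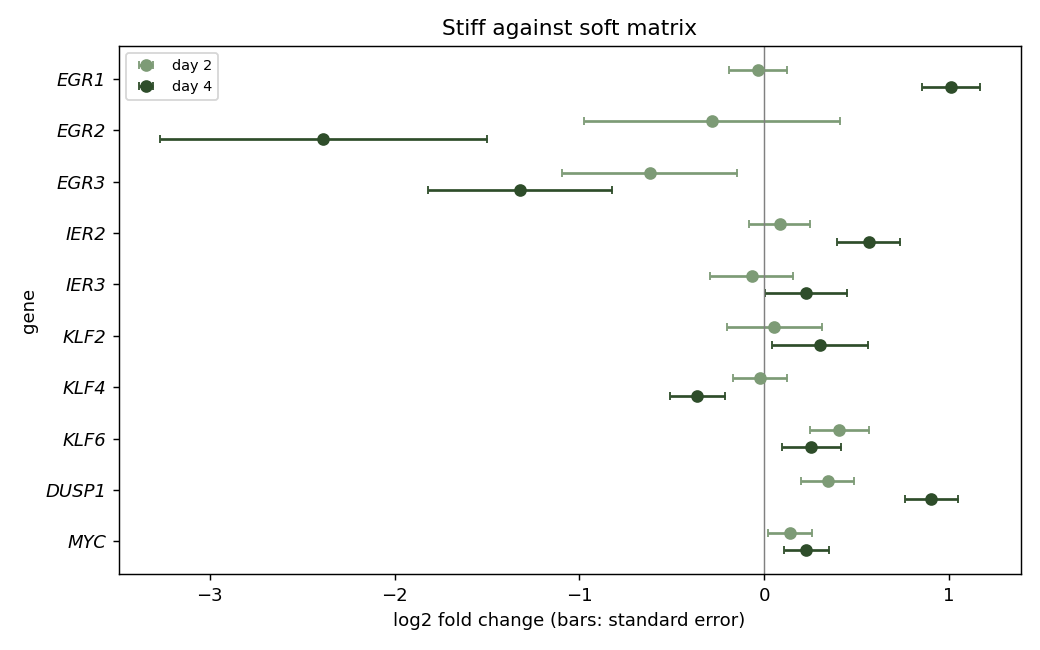
Log2 fold change of the stiff against the soft matrix for each member at day 2 (light) and day 4 (dark), with points for the estimate and bars for its standard error from the edgeR fit. At day 4 EGR1 is at 1.01 and DUSP1 at 0.91, while the lowly counted EGR2 and EGR3 have wide bars at -2.38 and -1.32, and no member passes the adjusted threshold at either day.

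Whether the effect of stiffness itself changed between the days was tested as the difference of the 2 log2 fold changes. No member and no gene was called (0%) at an adjusted p under 0.05, and DESeq2 and limma called no member. At an unadjusted p under 0.05 there were 2 members, EGR1 and DUSP1, against 284 of 14570 genes. For EGR1 the difference was 1.04 with an SE of 0.221 (unadjusted p = 0.00160, adjusted p = 0.9997 by edgeR). For DUSP1 it was 0.56 with an SE of 0.204 (unadjusted p = 0.0257, adjusted p = 0.9997 by edgeR). Without stiff replicate 1 of day 4 the count of members called was 4 (DUSP1, EGR1, IER2 and IER3), when 20.9% of all genes were called (3139 of 15021). Without stiff replicate 2 it was 1 (EGR1), when 0.0799% were called (12 of 15014). Averaged over both days, 0 members were called for stiffness by edgeR and 6 had an unadjusted p under 0.05. DESeq2 called 2, DUSP1 and EGR1, with 1.44% of all genes. The background for this average in edgeR was 0.426% of genes at the adjusted and 7.7% at the unadjusted threshold. The log2 fold change of DUSP1 averaged over days was 0.62 (SE 0.102, adjusted p = 0.0588 by edgeR).

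The days differed far more than the matrices. On the soft matrix 27.4% of all genes were called between day 4 and day 2, and 2 of the 10 members were among them, IER2 and KLF2, both lower at day 4. On the stiff matrix the background was 27.6%, and again 2 members were called, with EGR1 higher and KLF2 lower at day 4. Both counts are close to the background. The libraries of the days did not overlap for 9 members on the soft and 8 on the stiff matrix, against 75.3% and 62.7% of all genes. Averaged over the matrices 4 members were called, EGR1 and KLF6 higher and IER2 and KLF2 lower, against 46.2% of genes. These comparisons use the same 8 libraries as those of stiffness.

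EGR1 rose on the stiff matrix from 38.4 and 29.5 CPM at day 2 to 87.3 and 87.4 CPM at day 4. The rise was 2.57-fold, with a log2 fold change of 1.36, an SE of 0.158 and an adjusted p of 0.00217 by edgeR. On the soft matrix the values were 35.2 and 34.3 CPM at day 2 and 45.5 and 41.3 CPM at day 4. These groups did not overlap either, but edgeR gave only 0.32 (SE 0.156) on the log2 scale, with an adjusted p of 0.160. The soft difference was called with offsets for GC content and length (0.54, adjusted p = 0.0220 by edgeR) and without stiff replicate 1 of day 4 (adjusted p = 0.0461). The rise on the stiff matrix passed the threshold in 19 of 20 other settings, the exception being the fit of the 4 stiff libraries alone (adjusted p = 0.0521).

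DUSP1 had values of opposite sign with time on the matrices, neither of them called. On stiff it went from 170 and 134 CPM to 193 and 203 CPM, and on the soft matrix from 121 and 119 CPM to 107 and 104 CPM. The days did not overlap on either matrix. The estimates were 0.38 (SE 0.144, adjusted p = 0.0871 by edgeR) on stiff and -0.18 (SE 0.145, adjusted p = 0.379) on soft, on the log2 scale. With offsets for GC content and length the value on soft was 0.02, and that on stiff was 0.48 and called (adjusted p = 0.0280 by edgeR). Without stiff replicate 1 of day 4 the value on stiff was called as well (0.41, adjusted p = 0.0171).

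KLF2 fell on both matrices. On the soft matrix it had 184 and 157 CPM at day 2 and 93.6 and 66.1 CPM at day 4, which is -1.10 on the log2 scale (SE 0.260, adjusted p = 0.0191 by edgeR). On the stiff matrix 181 and 174 CPM at day 2 were followed by 74.1 and 123 CPM at day 4, or -0.85 on the log2 scale (SE 0.258, adjusted p = 0.0442 by edgeR). All day 4 libraries lay below all day 2 libraries. The call on the soft matrix was lost without any 1 of the 4 soft libraries (adjusted p = 0.0519 to 0.144), and that on the stiff matrix without any 1 of the 6 libraries other than stiff day 4 (adjusted p = 0.0523 to 0.175). With the replicate number as a block the fall on the stiff matrix had an adjusted p of 0.0818 by edgeR. In the fit of the 4 stiff libraries alone it was 0.129. By limma it was 0.0562 on log2(FPKM + 0.1), and 0.0976 on log2(FPKM + 1) without a filter. The fall on the soft matrix had an adjusted p of 0.0562 in this last setting. Of 20 other settings, 15 called the fall on the soft and 10 that on the stiff matrix.

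IER2 fell on the soft matrix, from 133 and 118 CPM at day 2 to 80.0 and 68.9 CPM at day 4, or -0.75 on the log2 scale (SE 0.168, adjusted p = 0.0157 by edgeR). On the stiff matrix it had 135 and 131 CPM at day 2 and 94.8 and 125 CPM at day 4, a difference of -0.27 on the log2 scale (adjusted p = 0.255 by edgeR). The call on the soft matrix was lost without any 1 of the 4 soft libraries (adjusted p = 0.0640 to 0.134). IER3 had 107 and 108 CPM at day 2 and 87.3 and 65.4 CPM at day 4 on the soft matrix, and 104 and 102 CPM at day 2 on the stiff matrix. Its log2 fold changes with time were -0.50 on the soft and -0.20 on the stiff matrix, neither of them called.

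The remaining members shifted less. KLF6 was higher at day 4 on both matrices, with log2 fold changes of 0.50 (adjusted p = 0.0514 by edgeR) on the soft and 0.35 (adjusted p = 0.139) on the stiff matrix. The average over both matrices was called, at 0.42 (SE 0.112, adjusted p = 0.0170 by edgeR), and lost its call without soft replicate 2 of day 4 or without any 1 of the day 2 libraries. KLF4 had 12.005 and 12.6 CPM on the soft and 12.5 and 11.8 CPM on the stiff matrix at day 2, and its log2 fold change with time on the stiff matrix was -0.44 (adjusted p = 0.0606 by edgeR). MYC had 68.3 and 67.0 CPM on the soft and 75.5 and 73.4 CPM on the stiff matrix at day 2, and its 8 values spanned only 59.4 to 75.5 CPM. EGR3 had 22 and 18 counts on the soft and 7 and 15 counts on the stiff matrix at day 2, and EGR2 had 11 and 12 counts and 6 and 10 counts.

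Differences between replicates moved with GC content. The difference between replicate 2 and replicate 1 in log2 CPM was related to GC content across 13158 genes, which are not independent replicates, with Spearman's rho of -0.575 in soft day 2, 0.281 in stiff day 2, -0.202 in soft day 4 and 0.328 in stiff day 4. Among the members GC content was highest in IER2 (63.0%), KLF2 (61.2%) and IER3 (58.5%) and lowest in KLF6 (45.7%). With offsets for GC content and length in each library, an alternative chosen after the data were seen, EGR1, DUSP1 and IER2 passed the threshold for stiffness at day 4, with log2 fold changes of 1.05, 0.88 and 0.54, when 133 of 13158 genes were called. Such offsets also absorb differences between conditions that follow GC content or length, and this fit cannot tell the 2 apart. The fall of IER2 with time on the soft matrix shrank to -0.21 (adjusted p = 0.0840 by edgeR) and that averaged over matrices to -0.04 (adjusted p = 0.604). KLF2 remained called on the soft matrix, at -0.65, and on the stiff matrix, at -0.62. In that fit 3 members were called with time on soft (EGR1, KLF2 and KLF6), with 28.8% of all genes, and 4 on stiff (DUSP1, EGR1, KLF2 and KLF6), with 32.0%. IER3 changed sign, to 0.04 on the soft and 0.49 on the stiff matrix, and its offsets rest on the implied length of 7440 bases.

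**Figure D4:**
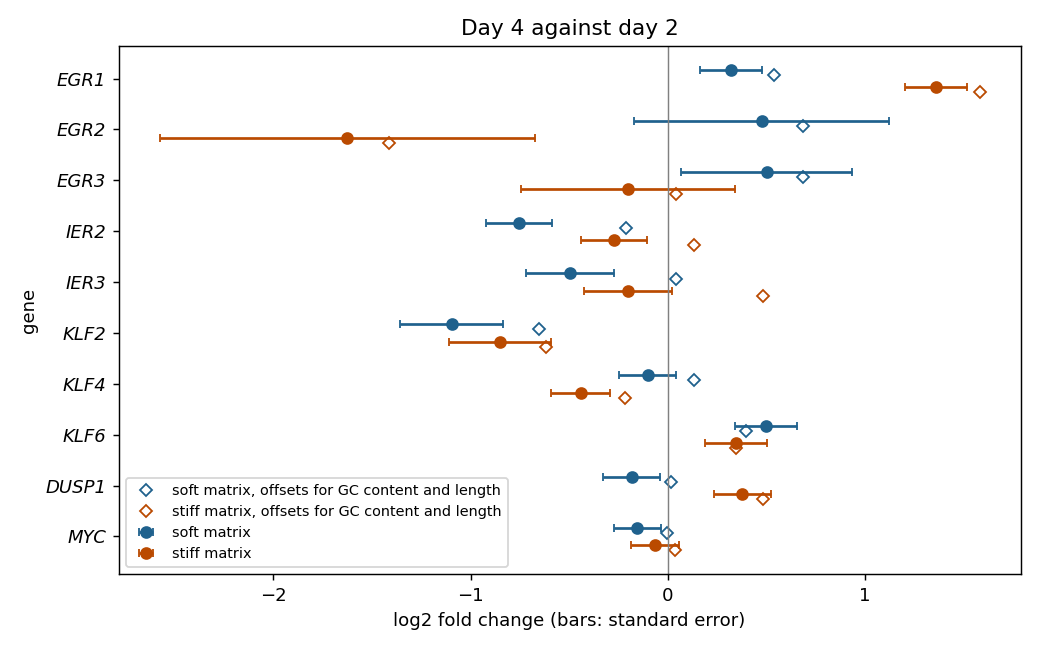
Log2 fold change of day 4 against day 2 for each member on the soft (blue) and stiff (orange) matrix, with filled points and standard error bars from the edgeR fit and open diamonds for the fit with offsets for GC content and length. EGR1 stands at 1.36 on the stiff matrix, KLF2 is below 0 on both matrices in both fits, and IER2 on soft moves from -0.75 to -0.21.

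The pathway around these genes was described with lists chosen from general knowledge, with earlier results of these data known. Among the AP-1 genes FOS had the largest difference between matrices at day 4. It had 2.80 and 3.25 CPM on the soft and 13.0 and 12.3 CPM on the stiff matrix, or 2.06 on the log2 scale (adjusted p = 0.0106 by edgeR). With time it rose on stiff by 2.23 on the log2 scale (adjusted p = 0.00123 by edgeR), whereas its log2 fold change on the soft matrix was 0.35 and not called. FOS and EGR1 thus both had their highest CPM on the stiff matrix at day 4. Both were called with time on that matrix, as were 27.6% of all genes, and a link between them was not tested. JUN fell with time on the soft (log2 fold change -0.57) and the stiff matrix (-0.55), and so did FOSL1 (-0.86 on each). Of the 8 AP-1 genes, 0 rose and 2 fell with time on the soft matrix, where 27.4% of all genes were called. On the stiff matrix 1 rose and 2 fell. FOSB and JUNB were not called between days on either matrix, and at day 4 their log2 fold changes for stiffness were 0.43 and -0.40.

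Of the regulators upstream, SRF fell with time by 0.45 on the soft and by 0.48 on the stiff matrix on the log2 scale. MKL1, which encodes the coactivator now called MRTFA, fell by 1.09 on each. These were the 2 called of the 6 genes of that list on each matrix. The tests with time called 27.4% of all genes on the soft and 27.6% on the stiff matrix. Averaged over matrices, 3 of the 6 fell and 1, ELK4, rose, against 46.2% of all genes called. None of the 6 SRF and ternary complex factor genes was called for stiffness at either day, where 0 had an unadjusted p under 0.05. NAB2, a corepressor that EGR factors induce and that restrains them, fell with time by 0.67 on the soft and by 0.80 on the stiff matrix. Its partner NAB1 was not called.

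Of 30 other immediate-early genes outside AP-1, 29 were tested. None was called for stiffness at either day. At an unadjusted p under 0.05 there were 3 at day 2 and 12 at day 4, against 2.82% and 6.93% of all genes. With time on the soft matrix 2 rose and 7 fell, and on the stiff matrix 4 rose and 9 fell. The same tests called 27.4% and 27.6% of all genes. The largest rise was that of PLK2, a Polo-like kinase, by 1.22 on the soft and 1.29 on the stiff matrix on the log2 scale. CTGF (CCN2), a matricellular protein gene, rose by 0.60 and 1.13. The falls included IER5L (-1.79 on the soft and -1.72 on the stiff matrix) and NR4A1 (-0.95 and -0.88), an orphan nuclear receptor gene, and the inhibitor of DNA binding ID3 (-0.67 and -0.86). Its relative ID1 fell on the stiff matrix (-0.92) and had -0.63 on the soft matrix, which was not called (adjusted p = 0.0731 by edgeR). The median log2 fold change of this list with time was -0.20 on the soft and -0.30 on the stiff matrix, and 0.02 and 0.03 over all genes.

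Other genes of the same families did not share one direction. The tests with time called 27.4% of all genes on the soft and 27.6% on the stiff matrix. Of 10 other KLF genes tested, KLF5 rose with time on both matrices (log2 fold changes of 0.71 and 0.78), KLF11 rose on the soft matrix (0.56) and KLF10 fell on the stiff matrix (-0.79). Of 7 other MAP kinase phosphatase genes tested, DUSP6 rose (0.48) and DUSP7 and DUSP10 fell (-0.47 and -0.46) with time on the stiff matrix, and none was called on the soft matrix. Of 9 genes of the MYC network, MNT fell on both matrices (-0.58 and -0.78), as did MXD4 (-0.82 and -0.75), and MXD3 fell on the soft matrix (-1.33). These 3 are known as antagonists of MYC. MAX, the partner of MYC and of its antagonists, rose on the soft matrix (0.59). Of 18 MYC targets tested, 17 had a positive log2 fold change for stiff against soft at day 4. The median was 0.35 over these targets and 0.02 over all genes. None was called, and 4 had an unadjusted p under 0.05, against 6.93% of all genes. The list summed to 2879 and 3229 FPKM in the soft and to 3161 and 4119 FPKM in the stiff libraries, so the groups overlapped and stiff replicate 2 was the highest. With time 2 of these targets rose and 2 fell on the soft matrix, and 1 rose and 1 fell on the stiff matrix. The background was 27.4% and 27.6% of all genes. EIF4E, the cap-binding factor of translation, rose on each (0.88 and 0.85), and CAD, an enzyme of pyrimidine synthesis, fell on each (-0.947 and -0.996).

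The genes whose pattern over the 8 libraries was most like that of each member were found among 12165 genes, by the root-mean-square difference of centred log2 CPM. For EGR1 these were CTGF (0.148), ADM (0.153) and CNN1 (0.186), and for DUSP1 they were PID1 (0.122), DUSP8 (0.157) and GADD45A (0.163). KLF2 was nearest to ATAD3B (0.0688), IER2 to TUBB6 (0.0745), IER3 to NPRL2 (0.0487), KLF4 to SLC20A1 (0.0711), KLF6 to NIPAL3 (0.0592) and MYC to NAT10 (0.0266). The lowly counted EGR2 and EGR3 were nearest to P2RX7 (0.286) and DLL1 (0.159). Among the members themselves the closest pair was IER2 and IER3 (0.178), followed by KLF4 and MYC (0.238). These distances share the libraries and their differences in depth and GC content, and are given as a description.

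Exons of EGR3, IER2, IER3, KLF4 and MYC overlap those of genes on the opposite strand in GENCODE v44lift37, among them IER3-AS1 and HCG20 for IER3 and CASC11 for MYC. The strand setting of the read counting was not given in the sources used here, so reads of these genes and of their antisense partners cannot be told apart. EGR1, KLF2, KLF6 and DUSP1 had no exon overlap with another gene on either strand, and EGR2 overlapped a gene on its own strand.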

How the data were processed

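RNA was measured in 8 LX-2 libraries, 2 for each of 4 conditions taken from the sample labels, with the stiffness from the study's methods. Per the labels, the authors used Trim Galore, STAR 2.7.1a, bedtools 2.24.0, HTSeq and DESeq2 with hg19, and the deposited counts are read counts per gene without normalization. The gene annotation and strand setting of the counting are not given in the sources used here. The authors also deposited FPKM, in which libraries are scaled by median-of-ratios size factors, as checked on 12867 genes. No column was left without a sample.

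Genes passing filterByExpr by condition (14570 of 25369) were tested on the counts with edgeR 4.0.16 in R 4.3.3: TMM factors (0.870 to 1.08), a quasi-likelihood fit of all 8 libraries with 4 conditions, and Benjamini-Hochberg adjustment over all genes at 0.05. CPM are TMM-normalized. For log2 CPM the prior count was 2. Each standard error (SE) was obtained from the log2 fold change and its F statistic. With 2 libraries a condition, the precision is limited by replicates more than by depth, except for EGR2 and EGR3. Intervals and limits of counts cover counting error only.

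All 10 members are named in every comparison. From other lists genes with an adjusted p under 0.05 are named, at most the 4 largest per list and comparison, with FOS, FOSB, JUN and JUNB always. For likeness, genes had an average log2 CPM of at least 1. The members and lists were chosen with earlier results of these data known. Promoters came from RefSeq and coordinates from GENCODE v44lift37 on GRCh37. GC content was that of the transcript closest to the length implied by the FPKM, matched for 90.3% of genes tested.

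Alternatives were DESeq2 1.42.0, limma 3.58.1 on log2(FPKM + 1) and log2(FPKM + 0.1), other scaling, other filters, separate fits, the replicate number as a block and leaving out each library. Offsets for GC content and length and a crossed block were added after the data were seen. The tests were tested on simulated counts.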

Additional observations from a re-analysis of the deposited data

Results flagged for a closer look

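The difference of DUSP1 between days had opposite signs on the matrices. Both soft libraries of day 4 (107 and 104 CPM) were below both of day 2 (121 and 119 CPM), and both stiff libraries of day 4 (193 and 203 CPM) were above both of day 2 (170 and 134 CPM). The difference between the effects was 0.56 on the log2 scale, with an unadjusted p of 0.0257 and an adjusted p of 0.9997 by edgeR, and it ranged from 0.40 to 0.74 over 19 other settings, of which 1 passed the threshold. With offsets for GC content and length the log2 fold change on the soft matrix was 0.02. With 2 libraries per group, none could be tested for standing apart.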

How the results depend on the processing

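Of 10 members, the number called for stiffness at day 2 was 0 and became 2 when these 4 libraries were fitted separately (4.67% of all genes called). At day 4 it was 0 and became 2 with DESeq2 (1.05% of all genes called) and 3 with offsets for GC content and length (1.01%). For the change between days it was 0, and 0 to 4 without 1 library. Averaged over days it was 0, and 2 with DESeq2 (1.44% of all genes called) and 4 with the offsets (2.06%). With time on the soft matrix it was 2, and 4 in a separate fit (50.7% of all genes called), 1 with limma on log2(FPKM + 1) without a filter and 0 to 5 without 1 library (5, without stiff day 4 replicate 1, beside 52.9% of genes). With time on the stiff matrix it was 2, and 0 in a separate fit (0 of 14069 genes called), 4 with the offsets and 1 to 6 without 1 library (6, without stiff day 4 replicate 2, beside 43.8% of genes). Where a library is left out, the lone library is assumed to vary like the other groups. The cause of these shifts was not tested. Separate fits and left-out libraries use fewer samples, and they also change which libraries the spread is estimated from.

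Same-numbered libraries of different conditions showed no clear shared deviation in the same direction (r = -0.490 to 0.0773). Between soft and stiff at day 4 r was -0.490, so libraries of unlike number deviated together there. A shared origin of these libraries was not tested. With the replicate number as a block the count on the stiff matrix with time became 1, and no other count of members called changed. With the numbers crossed on the stiff matrix at day 4, 2 members were called for stiffness at day 4, EGR1 and DUSP1, with 0.426% of all genes. The count became 1 for stiffness averaged over days (0.618%). It became 3 with time on the soft matrix (31.2%) and 5 with time averaged over matrices (49.9%).

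Among single genes the following changed sign. With offsets for GC content and length, log2 fold changes became 0.0065 for EGR1 and 0.0219 for KLF4 (stiffness, day 2); 0.0419 for IER3, 0.136 for KLF4 and 0.0174 for DUSP1 (time, soft); 0.0424 for EGR3, 0.133 for IER2, 0.486 for IER3 and 0.0392 for MYC (time, stiff); and 0.264 for IER3 and 0.0175 for MYC (time, averaged). Without scaling factors they became -0.0095 for KLF2 (stiffness, day 2), -0.0222 for IER3 (stiffness, averaged) and -0.0044 for DUSP1 (time, averaged). That setting moved the median of all genes with time on the stiff matrix to -0.10.

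Leaving out 1 library gave, for stiffness at day 2, -0.234 to 0.148 for EGR1, -0.686 to 0.0315 for EGR2, -0.0537 to 0.176 for KLF2 and -0.0665 to 0.0256 for KLF4. At day 4 it gave -0.122 to 0.521 for IER3 and -0.101 to 0.631 for KLF2. For the change between days it gave -0.0454 to 0.593 for IER3, -0.147 to 0.580 for KLF2 and -0.357 to 0.0560 for KLF6. With time it gave -0.132 to 0.869 for EGR2 on the soft matrix, and -0.646 to 0.438 for EGR3 and -0.566 to 0.0841 for IER3 on the stiff matrix. For the averages it gave -0.0997 to 0.225 for IER3 and -0.0272 to 0.341 for KLF2 (stiffness) and -0.0849 to 0.470 for EGR3 (time). Depth limits only EGR2 and EGR3, with 0 to 24 counts per library.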

Other observations

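Heat shock genes, which are known to respond to the handling of cells, were measured beside the immediate-early genes. All 8 had a positive log2 fold change for stiff against soft at both days, with medians of 0.33 at day 2 and 0.13 at day 4. None was called. At an unadjusted p under 0.05 there were 4 at day 2 and 0 at day 4, against 2.82% and 6.93% of all genes. Their summed level was 2115 to 2197 FPKM on the soft and 2556 to 2762 FPKM on the stiff matrix at day 2, and 2181 to 2329 FPKM and 2423 to 3163 FPKM at day 4. HSPA1A and HSPA1B, which encode nearly identical proteins and can share reads, fell with time (log2 fold changes of -1.02 for each on soft, and of -1.34 and -1.37 on stiff). They were the only 2 of the 8 called on either matrix, where the tests called 27.4% (soft) and 27.6% (stiff) of all genes. With time, 3 of the 8 had a positive and 5 a negative log2 fold change on each matrix. The part of cell handling in the levels of the immediate-early genes was not tested.

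Of 9 stellate cell markers tested, 3 (ACTA2, SPARC and VIM) rose with time on each matrix and none fell. The same tests called 27.4% of all genes on the soft and 27.6% on the stiff matrix. Averaged over matrices, 5 rose and 1 fell, against 46.2% of all genes called. The marker that fell was COL1A1, with 952 CPM at day 2 and 686 CPM at day 4 on the soft and 874 and 588 CPM on the stiff matrix. For stiffness at day 4, 7 of the 9 had a negative log2 fold change and none was called. An unadjusted p under 0.05 was found for 4, against 6.93% of all genes. ACTA2, the smooth muscle actin gene of myofibroblasts, rose by 0.97 on the soft and 0.84 on the stiff matrix on the log2 scale, and VIM by 1.12 and 0.96. PTPRC, a leukocyte marker with 12 to 64 counts per library, rose by 2.06 and 1.56. The other leukocyte and macrophage markers tested, CD68 (mean 85.6 CPM at day 2 and 100.2 CPM at day 4 on soft, 103 and 115 CPM on stiff) and CD14 (6.25 and 4.73 CPM, 3.69 and 3.80 CPM), were not called with time, and MARCO had 0 to 1 counts.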
